A study of Mus musculus with 24 samples.

Results

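C-type lectin receptors of myeloid cells are surface proteins with which macrophages, monocytes, neutrophils and dendritic cells bind sugars and lipids of microbes and material from dying cells. Some of them signal through an immunoreceptor tyrosine-based activation motif, carried in their own tail or by the partner chains FcRγ (Fcer1g) and DAP12 (Tyrobp), to the kinase SYK and then to the CARD9, BCL10 and MALT1 complex and NF-kB. Others carry an inhibitory motif that recruits the phosphatases SHP-1 (Ptpn6), SHP-2 (Ptpn11) and SHIP1 (Inpp5d). In liver, such receptors are found mainly on macrophages and on cells that enter from the blood. The 9 genes described here are Clec4d, Clec4e, Clec4n, Clec7a, Clec5a, Clec12a, Clec4a1, Clec4a2 and Clec4a3. They were chosen by their gene symbols, with earlier results of these data known, as were the gene lists below. All 9 were found among the 56205 gene rows of the count table.

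Poly(A) RNA was sequenced from whole livers of 24 C57BL/6J mice, of which 12 ate a methionine-choline deficient (MCD) diet and 12 ate its control diet, each for 20 weeks. Males and females were used in equal numbers on each diet, but no library is labelled with a sex, and the animals' age is not given in the sources used here. No transgene or deletion was involved. The MCD diet, here a high-fat formula, is a nutritional model in which lack of choline and methionine impairs lipid export from the liver. Control replicates and MCD replicates are numbered as in the labels. In whole liver, more cells of a type and more RNA per cell cannot be told apart, so every level below is a level in the tissue.

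Total counts ranged from 16793207 to 24915175 in control libraries and from 16388650 to 24577848 in MCD libraries. Levels are given as CPM, the count scaled by library size and by a TMM factor. These factors were 0.642 to 0.973 in control libraries and 1.07 to 1.26 in MCD libraries and so did not overlap between diets. Control replicate 12 had the lowest factor, 0.642. A floor of 3 counts corresponded to 0.134 to 0.227 CPM in control libraries and 0.109 to 0.158 CPM in MCD libraries, and it covers counting error only. Hepatocyte mRNA dominated the tissue, with Alb at a mean of 79836 CPM in control and 51883 CPM in MCD libraries.

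All 9 genes lie on chromosome 6 (GENCODE M21, GRCm38). Clec4a1 (122921848 to 122934619, plus strand), Clec4a3 (122952515 to 122969875, plus), Clec4a2 (123106428 to 123143999, plus), Clec4n (123229843 to 123247021, plus), Clec4d (123262111 to 123275265, plus) and Clec4e (123281789 to 123289870, minus) lie there in this order. Clec12a (129342691 to 129365303, plus) and Clec7a (129461591 to 129472779, minus) lie further along the chromosome. Clec5a (40574894 to 40585821, minus) lies apart. No exon of a member overlapped an exon of another gene. Of the 50-base windows of the longest Clec4a2 transcript, 8.76% were also found in another gene, most often Clec4a4, so a small part of its reads may be shared. The shares were 0.812% for Clec4n, 0.691% for Clec12a and 0 for the other 6 members.

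RefSeq promoter windows (GRCm38.p6, 300 bases ending 50 bases after the start) matched 8 members and are shown for 4 of them. Clec4d, Clec4e and Clec7a had large diet differences, and Clec4a1 had a small one. Capitals mark each GAGGAA, the core letters of the motif bound by PU.1 (Spi1), the main transcription factor of myeloid cells, on either strand (TTCCTC on the other). The windows are chr6:123261857-123262156 on the plus strand for Clec4d, chr6:123289822-123290121 on the minus strand for Clec4e, chr6:129472730-129473029 on the minus strand for Clec7a and chr6:122921598-122921897 on the plus strand for Clec4a1. Each is written 5′ to 3′ along the gene.
Clec4d: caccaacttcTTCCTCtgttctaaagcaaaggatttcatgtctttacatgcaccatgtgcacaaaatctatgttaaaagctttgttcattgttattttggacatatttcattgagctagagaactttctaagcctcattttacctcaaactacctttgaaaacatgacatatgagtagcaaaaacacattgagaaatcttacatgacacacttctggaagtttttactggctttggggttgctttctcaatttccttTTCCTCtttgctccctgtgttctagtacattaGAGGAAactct
Clec4e: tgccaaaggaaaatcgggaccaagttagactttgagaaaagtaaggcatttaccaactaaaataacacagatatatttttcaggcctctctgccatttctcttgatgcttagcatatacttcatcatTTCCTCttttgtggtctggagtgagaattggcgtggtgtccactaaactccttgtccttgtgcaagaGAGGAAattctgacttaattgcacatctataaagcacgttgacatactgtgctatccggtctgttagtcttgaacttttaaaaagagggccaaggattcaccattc
Clec7a: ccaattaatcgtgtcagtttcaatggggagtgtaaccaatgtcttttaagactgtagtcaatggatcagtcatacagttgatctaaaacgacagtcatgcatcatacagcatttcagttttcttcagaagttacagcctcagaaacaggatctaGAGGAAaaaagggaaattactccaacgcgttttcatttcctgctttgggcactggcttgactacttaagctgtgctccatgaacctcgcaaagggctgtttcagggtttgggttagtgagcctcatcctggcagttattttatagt
Clec4a1: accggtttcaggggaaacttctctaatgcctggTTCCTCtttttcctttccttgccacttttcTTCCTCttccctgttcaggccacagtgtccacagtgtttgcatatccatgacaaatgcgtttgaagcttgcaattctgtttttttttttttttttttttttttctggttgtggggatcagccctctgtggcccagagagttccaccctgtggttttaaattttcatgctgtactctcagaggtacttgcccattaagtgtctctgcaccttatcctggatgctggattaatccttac

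The letters GAGGAA were present on either strand in 7 of the 8 matched members, all but Clec4a2, beside 28.3% of 32851 RefSeq windows of the same length. A member was counted when any of its windows matched, whereas the shares are per window. Clec7a and Clec4a3 had 2 windows each, and in Clec4a3 the letters were found only in the second. The C/EBP letters TTGCNNAA were present in Clec4e (TTGTGCAA, first base at position -66 from the start) and in Clec12a (TTGCGCAA, position -140), beside 10.8% of all windows. The NF-kB letters, GGG and CC with any 5 bases between them, were present in 1 member, Clec4a1, beside 50.8% of all windows. Members with large and with small diet differences both carried GAGGAA, and a match of letters does not show that a factor binds there.

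All 9 receptors were higher in MCD than in control livers. The low-count filter kept all 9, but Clec4d, Clec4e and Clec5a passed it only through the MCD libraries, where they are high, so their calls are a description. The other 6, with at least 10 counts in every library, all passed the threshold of the edgeR quasi-likelihood test (FDR of 0.01 or less and log2 fold change above 0.5), where 19.2% of 14109 genes tested were called higher, 19.1% lower and 38.3% in either direction. The median log2 fold change of these 6 was 1.60, beside -0.10 over all genes tested. Of these 6, 3 (Clec7a, Clec4a2 and Clec12a) had every MCD library above every control library, which held for 9.5% of genes tested, and Clec4n, Clec4a1 and Clec4a3 overlapped. Clec4d, Clec4e and Clec5a did not overlap either. Scaling by total counts alone called 4540 genes higher and 848 lower in place of 2712 and 2688, and upper-quartile scaling called 3261 and 1710, while all 9 members were called higher with each. The size of the difference varied widely among members, from 0.87 for Clec4a3 to 5.92 for Clec4d on the log2 scale.

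**Figure D1:**
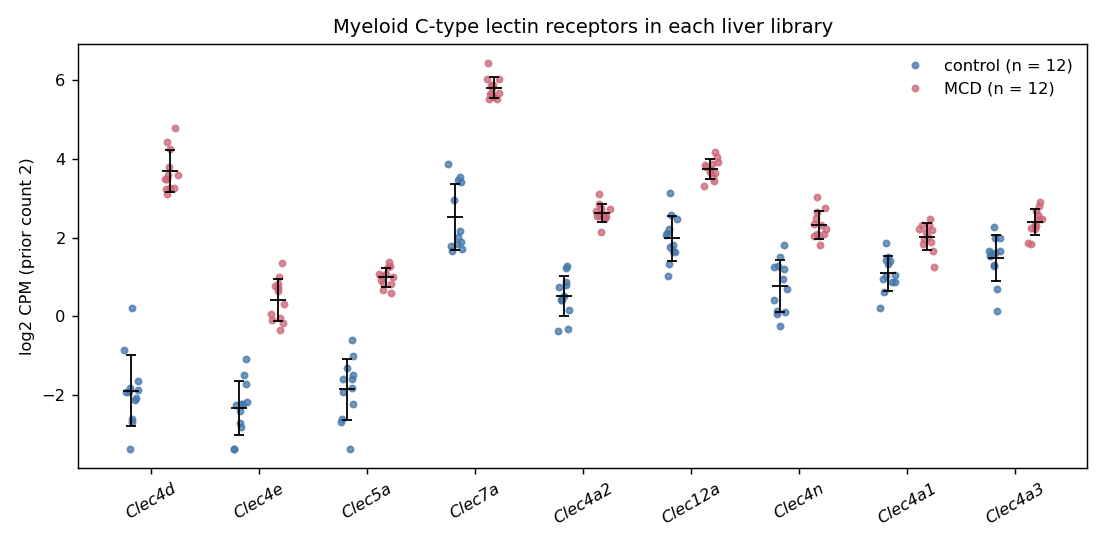
Level of each receptor in log2 CPM (prior count of 2) in 12 control and 12 MCD libraries. Points are libraries and bars are mean ± SD, and the diets overlap only in Clec4n, Clec4a1 and Clec4a3.

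Clec4d (ENSMUSG00000030144), also called MCL, is an FcRγ-coupled receptor that binds the mycobacterial glycolipid trehalose dimycolate and forms complexes with Mincle. It had 0, 3 and 14 counts in the lowest, median and highest control library, and 203, 284 and 753 counts in the MCD libraries. On the CPM scale these were 0, 0.168 and 1.06 in control and 8.56, 11.5 and 27.4 in MCD livers. Clec4d was thus near the limit of detection on the control diet, with 9 of 12 control libraries at or under 3 counts, and was clearly detected in every MCD library. Control replicate 12 stood apart with 14 counts, followed by replicate 10 with 7. Its log2 fold change was 5.92 (SE 0.34), a 60.7-fold difference with a 95% interval of 37.6 to 98.1, and only 8 of the genes tested had a larger one. Because the control sum was 45 counts over 12 libraries, the size of this fold rests on few control reads, and without control replicate 12 the log2 fold change was 6.42. Among MCD livers the level spanned 3.2-fold, with replicates 2, 10 and 11 at 18.8 to 27.4 CPM and the other 9 at or below 13.8 CPM.

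Clec4e (ENSMUSG00000030142) encodes Mincle, which uses the same FcRγ chain and binds both trehalose dimycolate and SAP130, a nuclear protein released by dying cells. It remained a low-level transcript on both diets. Control libraries had 0, 2 and 5 counts (lowest, median and highest) and MCD libraries had 17, 27 and 67. This was 0, 0.115 and 0.378 CPM in control and 0.691, 1.31 and 2.47 CPM in MCD livers, with no overlap. Its log2 fold change was 3.44 (SE 0.35). Of the control libraries, 10 were at or under 3 counts, and replicate 12 was again the highest. Without it the log2 fold change was 3.73.

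Clec4n (ENSMUSG00000023349) encodes Dectin-2, the receptor for fungal α-mannan and the third FcRγ-coupled member. Its promoter was not matched in the RefSeq table. Levels were 0.750, 1.68 and 3.44 CPM in the lowest, median and highest control library and 3.42, 4.71 and 8.03 CPM in the MCD libraries. MCD replicate 7 lay just below the highest control library, and the other 11 MCD libraries were above all controls. Dectin-2 mRNA thus differed by a log2 fold change of 1.50 (SE 0.21, FDR 8.98e-07), smaller than those of its FcRγ-coupled relatives Clec4d and Clec4e.

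Clec5a (ENSMUSG00000029915), or MDL-1, signals through DAP12 and the related adaptor DAP10 (Hcst). It too was a low-count gene, with 0, 3.5 and 10 counts (lowest, median and highest) in control libraries and 30, 49 and 61 in MCD libraries. The corresponding levels were 0, 0.209 and 0.566 CPM in control and 1.40, 1.92 and 2.49 CPM in MCD livers. MCD libraries were tightly grouped and all above the controls, 6 of which were at or under 3 counts. The log2 fold change was 3.10 (SE 0.27).

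Clec7a (ENSMUSG00000079293) encodes Dectin-1, the β-glucan receptor, which carries its own activation motif and needs no partner chain. Per length it had the highest mean level of the 9 genes on both diets. Control libraries had 44, 81 and 256 counts (lowest, median and highest), and MCD libraries had 1017, 1248.5 and 2359. Levels were 3.06, 4.18 and 14.4 CPM in control and 45.7, 52.9 and 85.8 CPM in MCD livers. The CV of the control livers was 61.6%. In 7 of them the level was between 3.06 and 4.42 CPM, whereas replicates 2, 8, 5, 11 and 4 had 7.69 to 14.4 CPM. In MCD livers the CV was 20.3%. The log2 fold change was 3.07 (SE 0.25, FDR 9.01e-11), an 8.42-fold difference with a 95% interval of 5.90 to 12.01, and without control replicate 4, the highest control, it was 3.23.

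Clec12a (ENSMUSG00000053063), or MICL, is an inhibitory receptor that binds uric acid crystals and dead cells and recruits SHP-1 and SHP-2. Levels were 1.95, 3.75 and 8.60 CPM (lowest, median and highest) in control and 9.77, 13.5 and 18.0 CPM in MCD libraries. The groups did not overlap, although control replicate 4 at 8.60 CPM came close to the lowest MCD library. Clec12a had a log2 fold change of 1.69 (SE 0.17, FDR 5.38e-09) and a 3.23-fold difference.

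Clec4a2 (ENSMUSG00000030148), or DCIR, is an inhibitory receptor of dendritic cells and macrophages. Levels were 0.682, 1.32 and 2.32 CPM (lowest, median and highest) in control and 4.35, 5.90 and 8.58 CPM in MCD libraries. Every MCD library was above every control library. The log2 fold change was 2.11 (SE 0.16, FDR 4.29e-11), a 4.31-fold difference and the largest of the 3 Clec4a genes.

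Clec4a1 (ENSMUSG00000049037) and Clec4a3 (ENSMUSG00000043832) are paralogues of Clec4a2. Clec4a1 had 1.06, 1.96 and 3.56 CPM (lowest, median and highest) in control and 2.30, 4.14 and 5.43 CPM in MCD libraries. Clec4a3 had 1.002, 2.96 and 4.69 CPM in control and 3.50, 5.21 and 7.32 CPM in MCD libraries. Both showed overlapping groups, with 9 MCD libraries above all controls for Clec4a1 and 8 for Clec4a3. These were the 2 smallest differences in the family, with log2 fold changes of 0.93 (SE 0.16, FDR 1.91e-05) for Clec4a1 and 0.87 (SE 0.18, FDR 0.000144) for Clec4a3. Neither would have passed a log2 limit of 1. Control replicate 9 was the lowest library for both genes and MCD replicate 1 the highest.

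Which members changed by different amounts was asked from their ratios within each library, which do not depend on library scaling. Of the 15 pairs among the 6 members with at least 10 counts in every library, 13 had a ratio that differed between diets (two-sided permutation test with 100000 resamples, adjusted p of 0.05 or less over all 36 pairs, smallest possible p 1e-05). Clec7a rose relative to Clec12a by 1.51 (95% interval 1.20 to 1.83) on the log2 scale and relative to Clec4n by 1.72 (1.37 to 2.07), with no overlap between diets in either. Within the Clec4a genes, Clec4a2 rose relative to Clec4a1 by 1.18 (0.85 to 1.50) and relative to Clec4a3 by 1.19 (0.85 to 1.53). The 2 pairs that did not pass were Clec4a1 and Clec4a3, and Clec12a and Clec4n. The difference was 0.02 for Clec4a1 over Clec4a3 (interval -0.25 to 0.28, adjusted p = 0.905 by permutation) and 0.20 for Clec12a over Clec4n (-0.11 to 0.51, adjusted p = 0.203 by permutation).

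The other 21 pairs involve Clec4d, Clec4e or Clec5a, whose control ratios rest largely on the prior count of 2 added before the logarithm, so their values are a description with no test. The ratio of Clec4d to the other 8 members was higher in MCD livers, by 2.30 against Clec7a up to 4.67 against Clec4a3 on the log2 scale. Its ratio to Clec4e, with which it shares a chain and a ligand, differed by 2.84, from summed counts of 45 for Clec4d and 24 for Clec4e in control and 3984 and 389 in MCD libraries. The ratio differed by -0.10 for Clec4e over Clec5a, -0.53 for Clec4e over Clec7a, -0.43 for Clec5a over Clec7a and 0.64 for Clec4e over Clec4a2. With a prior count of 0.5 in place of 2, Clec4e over Clec4a2 became 1.32 and Clec4e over Clec7a became 0.20.

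**Figure D2:**
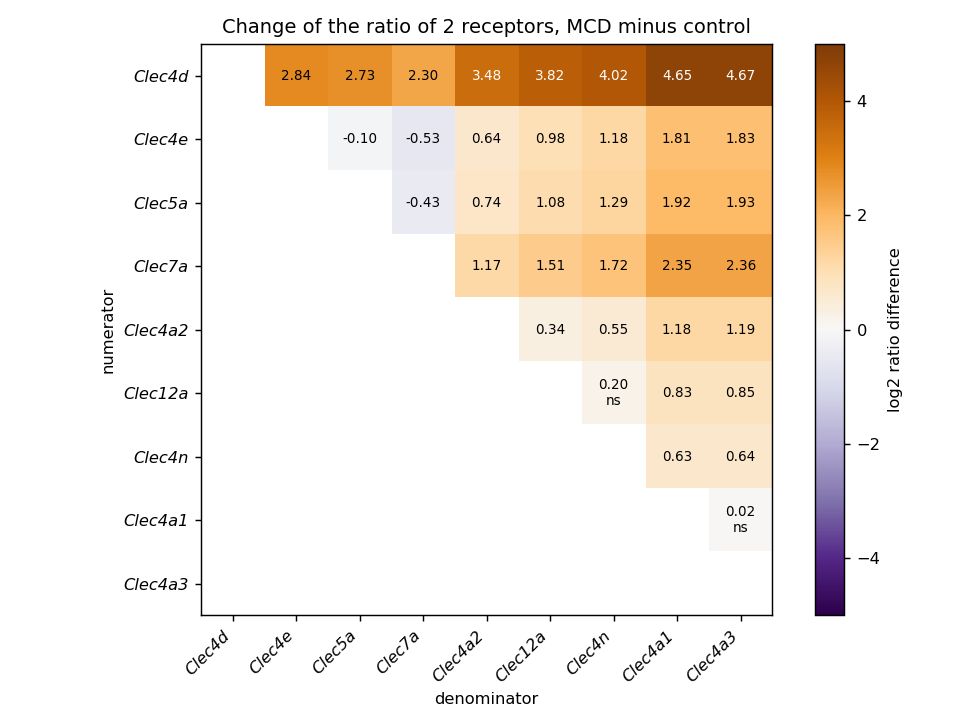
Difference between diets in the log2 ratio of each pair of receptors (row over column, MCD minus control means of 12 libraries each). The top row, Clec4d over each other member, runs from 2.30 to 4.67, and ns marks the 2 pairs among the 6 members with at least 10 counts in every library that did not pass the permutation test. No test is shown for pairs with Clec4d, Clec4e or Clec5a.

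Levels of different genes can be compared per length, here as CPM per kilobase of the longest transcript. In control livers the order was Clec7a (2.93 ± 1.80 CPM per kb, SD, n = 12), Clec4a3 (2.21 ± 0.774), Clec4a1, Clec12a, Clec4n, Clec4a2, Clec4d (0.179), Clec5a (0.0577) and Clec4e (0.0262). In MCD livers it was Clec7a (24.8 ± 5.04 CPM per kb), Clec4d (10.4 ± 4.41), Clec12a (4.17), Clec4a3, Clec4n, Clec4a1, Clec4a2, Clec5a (0.512) and Clec4e (0.277). Clec4d thus moved from the seventh place to the second, and was above Clec12a in 12 of 12 MCD libraries. Neighbours in the order that did not differ beyond their spread were Clec7a and Clec4a3, Clec4a1 and Clec12a, and Clec12a and Clec4n in control livers, where the order held in 7, 6 and 6 of 12 libraries. The low-count pair Clec5a and Clec4e (10 of 12) also lay within its spread there. In MCD livers they were Clec12a and Clec4a3 (7 of 12), Clec4a3 and Clec4n (9 of 12) and Clec4a1 and Clec4a2 (7 of 12).

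The summed level of the 9 genes was 9.89 ± 3.81 CPM per kb on the control diet and 52.9 ± 11.3 CPM per kb on the MCD diet (SD, n = 12). Clec7a made up 27.9% ± 8.23 of this sum in control and 47.1% ± 1.86 in MCD livers, and Clec4d 2.14% ± 2.94 and 19.0% ± 3.96. The shares of Clec4a3 and Clec4a1 were 22.9% and 14.6% in control and 7.76% and 5.04% in MCD livers. Together Clec7a and Clec4d thus held most of the measured receptor mRNA per length on the MCD diet, while the control mixture was spread over more genes. Clec12a was 13.0% in control and 7.99% in MCD livers, but its length is uncertain, and with the union of its exons it dropped from the third to the sixth place in MCD livers. Shares are a description and were not tested.

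**Figure D3:**
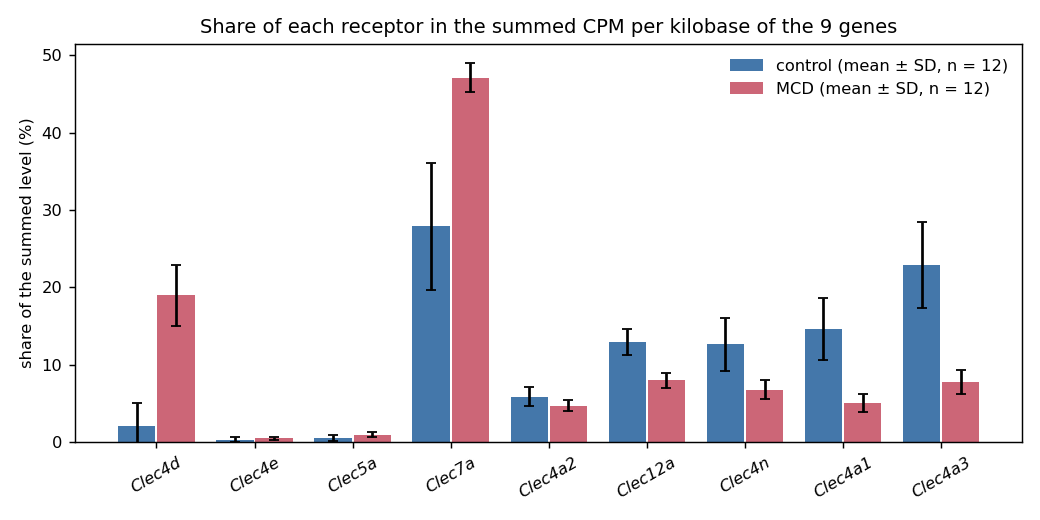
Share of each receptor in the summed CPM per kilobase of the 9 genes, in percent, as mean ± SD of 12 libraries per diet (the lower bar of Clec4d in control livers is cut at 0). Clec7a (27.9% and 47.1%) and Clec4d (2.14% and 19.0%) had the larger share in MCD livers, and Clec4a3 (22.9% and 7.76%) the smaller.

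Genes that most macrophages use were also higher in MCD livers. All 6 pan-macrophage markers were called higher, beside 19.2% of all genes tested. The amounts were unequal, namely Adgre1 0.65, Csf1r 0.67, Ptprc 1.30, Fcgr1 1.56, Cd68 2.75 and Lyz2 3.78 on the log2 scale. The summed level of the 6 markers was 118 to 328 CPM in control and 998 to 2405 CPM in MCD libraries. Lyz2 averaged 83.4 CPM in control and 1142 CPM in MCD libraries, and so made up most of the MCD sum. Relative to the mean of these markers within each library, 2 of the 6 receptors with at least 10 counts in every library rose and 3 fell (two-sided permutation test, 100000 resamples, adjusted over 9 ratios). Clec7a rose by 1.45 (SE 0.17, permutation p = 1e-05) and Clec4a2 by 0.28 (permutation p = 0.0035). Clec4a1 fell by 0.90 (SE 0.15, permutation p = 1e-05), Clec4a3 fell by 0.92 (SE 0.14, permutation p = 2e-05) and Clec4n fell by 0.27 (permutation p = 0.0372). Clec12a differed by -0.07 (SE 0.09, permutation p = 0.451). The fall of Clec4n passed in 8 of 24 fits without 1 library and did not pass with a prior count of 0.5 (-0.23, adjusted p = 0.0999 by permutation). For the low-count receptors, as a description, the ratio differed by 3.75 for Clec4d, 1.02 for Clec5a and 0.91 for Clec4e, and by 4.34, 1.54 and 1.66 with the prior count of 0.5.

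The direction of the smaller values depended on which marker was the reference. Relative to Ptprc, a gene of all leukocytes, Clec12a rose by 0.41 (permutation p = 0.00944), Clec4n differed by 0.20 (permutation p = 0.285), and Clec4a1 and Clec4a3 fell by 0.42 and 0.44. Relative to Csf1r, the receptor that macrophages need for survival, Clec12a and Clec4n rose by 1.02 and 0.81, and Clec4a1 and Clec4a3 differed by 0.18 and 0.17 (permutation p = 0.273 and 0.299). Csf1r shares exon bases with Hmgxb3 on the opposite strand, and whether counting used strand is not stated. Clec7a and Clec4a2 rose relative to each of the 3 references. Within control livers, the SD of Clec12a was 0.57 in log2 CPM and 0.24 as a ratio to the 6 markers, and that of Clec4a2 0.52 and 0.21, whereas that of Clec4d was 0.90 and 0.97.

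**Figure D4:**
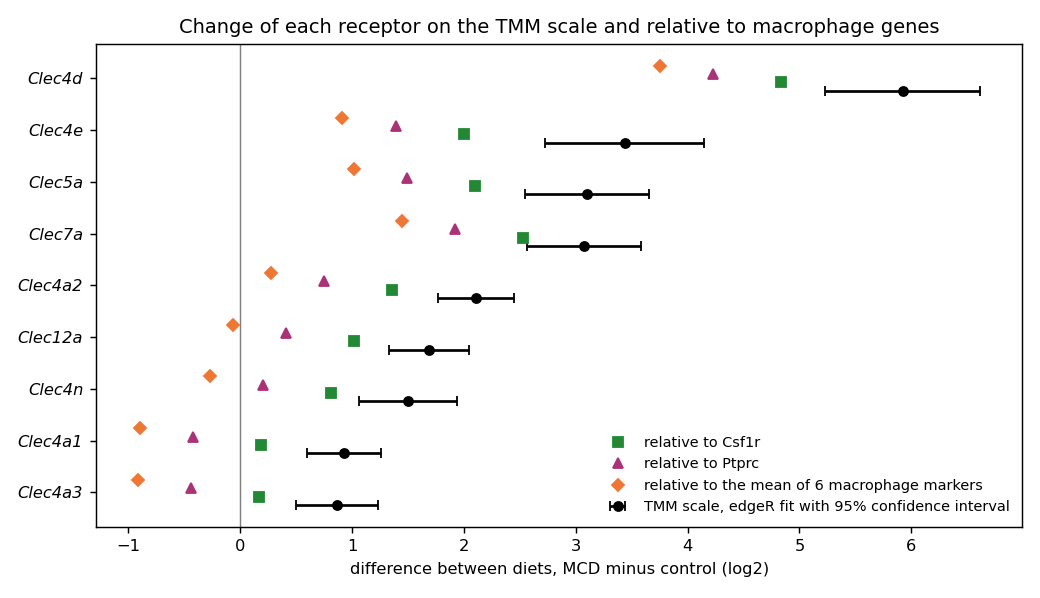
Difference between diets of each receptor (MCD minus control, log2), from the edgeR fit with its 95% confidence interval and as a ratio to the mean of 6 macrophage markers, to Ptprc and to Csf1r. Clec4a1 and Clec4a3 lie at 0.93 and 0.87 in the fit but at -0.90 and -0.92 relative to the 6 markers, and at 0.18 and 0.17 relative to Csf1r.

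Markers of other cells moved between the diets as well. Their counts stand beside 19.2% called higher and 19.1% called lower over all genes tested. All 8 genes listed for monocyte-derived macrophages were higher (median log2 fold change 3.0), led by Gpnmb (6.89, SE 0.70), Trem2 (4.59) and Itgax (3.82). Control counts were 0 to 426 for Gpnmb, 9 to 168 for Trem2 and 9 to 157 for Itgax. The sum of the 8 genes was 46.9 to 210 CPM in control and 1094 to 2161 CPM in MCD libraries. In MCD libraries Spp1 (mean 593 CPM) and Gpnmb (568 CPM) were its largest parts. Of 8 markers of Kupffer cells, the resident liver macrophages, none was higher and 5 were lower, namely Cd163 (-6.14), Timd4 (-4.10), Marco (-1.20), Clec4f (-1.11) and Vsig4 (-0.68). With total counts alone the lower call was kept by Cd163 and Timd4, not by the other 3. Vsig4 was also not past with upper-quartile factors (-0.54). The Kupffer cell sum was 162 to 477 CPM in control and 92.3 to 323 CPM in MCD libraries, so it overlapped. Of 9 neutrophil markers, 6 were too low to be tested, and Csf3r (1.44) was higher. S100a8 (2.80) and S100a9 (2.34) had 1 to 15 and 3 to 22 control counts, so their calls are a description. The neutrophil sum was 2.42 to 7.64 CPM in control and 13.1 to 40.0 CPM in MCD libraries, and the defining marker Ly6g had no count in any control library and a mean of 0.0343 CPM in MCD libraries. The part of these cell types in the receptor differences was not tested.

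The signalling partners of the receptors were mostly higher. Of 16 adaptors and kinases, 13 were called higher and none lower, with a median log2 fold change of 1.23. Over all genes tested, 19.2% were called higher and 19.1% lower, and the median was -0.10. Of the 13, Hcst had 2 to 26 counts in control libraries (median 9), so its call is a description. The DAP12 gene Tyrobp (2.47, from a mean of 11.8 to 65.1 CPM), the FcRγ gene Fcer1g (2.24, 12.2 to 57.8 CPM) and Card9 (2.19, 0.913 to 4.16 CPM) led, and in all 3 every MCD library was above every control library. Syk, the kinase next in the chain, was higher by 1.47 (SE 0.17). Those that did not pass included Lyn (0.18, FDR 0.0292) and Malt1 (-0.21, FDR 0.301), the paracaspase that works with CARD9 and BCL10. Lyn passed with total counts alone (0.52).

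Of 7 genes of inhibitory signalling, 3 were higher, beside 19.2% of all genes tested. They were Tnfaip3 (1.59), which encodes the NF-kB inhibitor A20, Inpp5d (1.36) and Dok3 (1.11). Ptpn6 (0.45), Cbl (0.44), Cblb (0.15) and Ptpn11 (-0.23) did not pass the fold limit. Ptpn6 passed with total counts, upper-quartile and relative log expression factors, and Cbl with total counts and upper-quartile factors. Of 7 transcription factors that act in myeloid cells or downstream of the receptors, 3 were higher, beside the same 19.2%. They were Spi1 (1.78), Irf5 (1.78) and Irf8 (1.42). Cebpb (0.55, FDR 0.0165), Nfkb1 (0.20), Rela (0.02) and Rel (-0.38) did not pass. Cebpb passed with total counts (0.94) and upper-quartile factors (0.70), and Nfkb1 with total counts (0.55). Spi1, whose core motif is marked in the promoters above, averaged 13.6 CPM (SD 4.57) on the control diet and 46.6 CPM (SD 9.35) on the MCD diet.

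Genes listed as protein ligands of these receptors moved in both directions. Anxa1 (3.76, from a mean of 4.25 to 57.9 CPM), Vim (2.51) and Anxa5 (1.08), which have been described as Dectin-1 ligands, were higher. Lgals9, the galectin-9 gene, was lower (-0.87, 513 to 281 CPM). Sap130 was lower too (-0.67, 25.4 to 15.9 CPM), but did not pass with total counts alone (-0.32, FDR 0.0142 by edgeR). Sap130 was listed by its symbol, which names a Sin3A-associated protein and not the Mincle ligand of that name. It stays in the counts of this list, which thus covers no Mincle ligand. The mRNA of a ligand does not measure its release.

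Of 17 cytokine and early-response genes that these receptors can induce, 9 could be tested. Of these, 7 were called higher, beside 19.2% of all genes tested. The transcription factor gene Egr2 (3.85) and the chemokine genes Cxcl2 (3.11) and Ccl4 (2.79) had the largest differences, and Tnf was at 2.79. Of the 7, 6 had a median under 10 counts in control libraries, all but Cxcl1 (2.08), so they too were kept by the low-count filter mainly through the MCD libraries, and their calls are a description. Control libraries had 1 to 11 counts of Tnf, 0 to 7 of Cxcl2, 0 to 14 of Ccl3, 1 to 12 of Ccl4, 3 to 37 of Ccl2 and 0 to 22 of Egr2. Egr2 averaged 0.473 CPM (SD 0.401) on the control diet and 7.04 CPM (SD 1.50) on the MCD diet, without overlap. Il1b (0.42, FDR 0.106) and Nlrp3 (0.62, FDR 0.0109) did not pass, but Nlrp3 passed with each of 3 other scalings and Il1b with total counts alone (0.79, FDR 0.00496). Il6, Il10, Il12b, Il23a, Csf2, Csf3, Ptgs2 and Egr3 did not pass the low-count filter, with at most 28 counts in any library. Without that filter 4 of these 8 were called higher, namely Ptgs2 (2.75), Il12b (2.09), Egr3 (1.69) and Il23a (1.53).

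**Figure D5:**
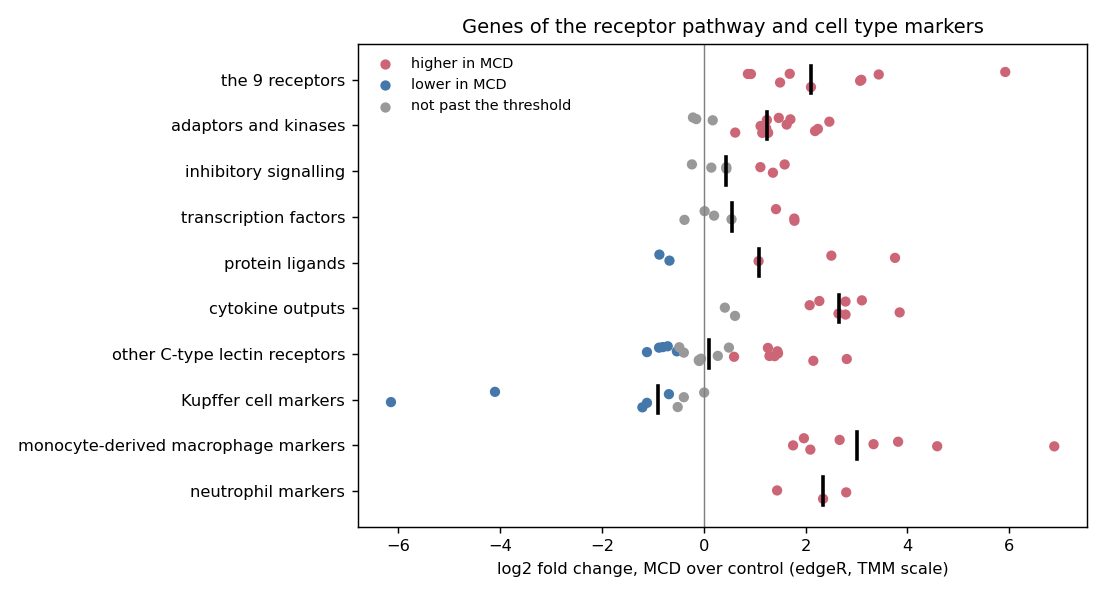
Log2 fold change (MCD over control, edgeR) of each tested gene in the receptor family, its pathway lists and 3 lists of cell type markers, coloured by call, with a bar at the median of each list. The receptors' median is 2.11 (9 genes, 3 of them with few control counts), that of adaptors and kinases 1.23 and that of monocyte-derived macrophage markers 3.0.

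After subtraction of each diet's mean, Pearson's r of log2 CPM over the 24 libraries was positive in all 15 pairs among the 6 members with at least 10 counts in every library. It had a median of 0.67 and ran from 0.31 (Clec4n and Clec4a1) to 0.82 (Clec7a and Clec12a), with 0.75 for Clec4a1 and Clec4a3. Over all 36 pairs the median was 0.37, and the lowest value was -0.39 (Clec4e and Clec7a). Clec4d and Clec4e had r = 0.61 and Clec4d and Clec7a r = -0.14, but Clec4d, Clec4e and Clec5a have few control counts. All values share libraries and scaling factors, so these are descriptions.

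Among 10109 other genes tested with a mean of at least 5 CPM, those whose within-diet pattern was most like that of Clec7a were Rgs2 (r = 0.92), Ms4a6c (0.91) and the stress-response factor gene Atf3 (0.91). For Clec12a they were Ly86 (0.91), the cathepsin gene Ctss (0.90) and Ifngr1 (0.87). For Clec4n they were the Fc receptor genes Fcgr4 (0.89) and Fcgr1 (0.88), and Cd300a (0.88). For Clec4a2 they included the complement genes C1qc (0.83) and C1qb (0.82), with Evl (0.82) between them. Clec4a3 was most like Gng2 (0.84), Cmklr1 (0.83) and Lcp2 (0.82), and Clec4a1 most like the haem oxygenase gene Hmox1 (0.74), Gng2 (0.73) and Sla (0.71). Clec4d, Clec4e and Clec5a had few control counts (0 to 14, 0 to 5 and 0 to 10), so their control values rest largely on the prior count of 2. With that limit, Clec4d was most like Set (0.86), Fam89b (0.83) and Gpr108 (0.81), and Clec4e most like Osgin1 (0.78), Dnajb11 (0.74) and Rpn1 (0.73). For Clec5a they were Atp5s (0.75), Trmt112-ps2 (0.63) and Rdh16f1 (0.62). Each r is over the same 24 libraries.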

How the data were processed

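The authors deposited raw read counts per Ensembl gene, 1 column per library, with no normalization, and 0 columns were left unused. The submitters' processing notes name bcl2fastq, STAR 2.7.3a and mm10 without giving their role. The study's methods name a stranded mRNA kit without a species, and the exon quantification pipeline and PISCES for reads aligned to the human genome. For the mouse libraries the counting program, annotation release and use of strand are not given in the sources used here. Symbols were taken from GENCODE M21, which names 51745 of the 56205 rows. The other 4460 rows hold 0.0808% of counts.

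The receptors and all gene lists were chosen with earlier results of these data known. Counts were tested in R 4.3.3 with edgeR 4.0.16 (filterByExpr by diet, TMM, glmQLFit, glmQLFTest, no covariate, all 24 libraries) over 14109 genes. A gene passed with an FDR (Benjamini-Hochberg) no higher than 0.01 and a log2 fold change beyond 0.5 in either direction. The SE is the absolute log2 fold change over the square root of F. Log2 CPM used a prior count of 2, which shrinks ratios of low genes. Ratios within libraries were tested by two-sided permutation (100000 resamples). No 2 of the 132 within-diet library pairs were identical. On data simulated for this comparison with 14109 genes, edgeR recovered 88 of 100 genes changed by 1 and 100 of 100 changed by 2 on the log2 scale. Alternatives were other scalings, filters and thresholds, DESeq2 1.42.0, limma-voom (limma 3.58.1), a replicate block, a sex-linked score as covariate, other references, a prior count of 0.5, another length and leaving out each library. All 9 receptors are reported. From each other list, the text names the 3 largest changes past the threshold and every gene that a count of 5 or fewer covers, except 1 that is not reported here. Syk, Spi1, Tnf and Egr2 values beyond this rule were chosen after their values were seen. For likeness, the text names the 3 tested genes with the highest diet-centred r and at least 5 CPM.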

Additional observations from a re-analysis of the deposited data

How the results depend on the processing

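All 9 receptors stayed higher under every alternative in which they were tested, except that Clec4a1 (0.93) and Clec4a3 (0.87) missed a log2 limit of 1. For Clec4d, Clec4e and Clec5a these calls are a description, as the main low-count filter kept them only through the MCD libraries. A minimum of 10 counts in every sample left 6 receptors to test, all 6 higher. Leaving out each of the 24 libraries in turn kept 9 of 9 higher. Over those fits Clec4d ranged from 5.80 to 6.42 and Clec4a3 from 0.79 to 0.95. Scaling by total counts alone raised the median of all genes by 0.37 on the log2 scale, and upper-quartile factors by 0.15, and the receptors rose with it (Clec4d 6.31, Clec4a3 1.20). A minimum of 10 counts called 1801 genes higher in all, beside 2712.

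Of the 7 inhibitory signalling genes, 5 were called with upper-quartile factors, with total counts and with a minimum of 10 counts, and 6 with an FDR limit of 0.05 and no limit on the fold, in place of 3. Of the 7 transcription factors, 5 were called with total counts and with that FDR limit, in place of 3. Of the cytokine genes, 11 were called without the low-count filter and 1 of 2 tested with a minimum of 10 counts, in place of 7. Of the other lectins, 8 were called with a minimum of 10 counts and with a log2 limit of 1, in place of 13, and 3 of the protein ligands passed that limit, in place of 5. The filters change by construction how many genes are tested. For the other settings the cause was not tested. With the union of exons, 5 of 9 receptors kept their rank in MCD livers. The ratio of Clec4n to the 6 macrophage markers passed in 8 of 24 fits without 1 library.

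In the labels, same-numbered libraries of the diets share only a number, and whether they share more is not stated. The deviations of same-numbered libraries correlated above 0.1 in 8 of 12 pairs (-0.28 to 0.35). Their median r was 0.23, beside -0.06 for pairs with other numbers. Of 12 control libraries, 2 correlated best with the MCD library of their own number. With the replicate block, 2781 genes were higher and 2430 lower, and Clec7a was 3.26 (FDR 3.93e-08 by edgeR). With the block 4 transcription factors (Cebpb added) and 8 cytokine genes (Nlrp3 added) were called, in place of 3 and 7, and the counts of receptors, adaptors, inhibitory genes, ligands and other lectins were the same.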

Other observations

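Other C-type lectin receptors of the liver did not move as a group. Of 30 listed, 20 could be tested, of which 8 were higher, 5 lower and 7 not past the threshold, with a median log2 fold change of 0.11. These counts and those of the lists below stand beside 19.2% higher and 19.1% lower over all genes tested. The highest were Mrc2 (2.81), the collagen receptor of mesenchymal cells and macrophages, Klrd1 (2.15), the CD94 chain of natural killer cells, and Cd207 (1.46), langerin. The 5 lower genes were Clec4f (-1.11), of Kupffer cells, Clec14a (-0.88), of endothelium, Clec2d (-0.80), the mannose receptor Mrc1 (-0.71) and Clec4g (-0.53), of sinusoidal endothelium. With total counts alone Clec14a (-0.55) was the only one of the 5 still called lower. Clec4g was also not past with relative log expression (-0.47) or upper-quartile factors (-0.38), or without the low-count filter (-0.48). Clec2d was also not past with upper-quartile factors (-0.65, FDR 0.0155 by edgeR). The list shares Clec4f and Clec1b with the Kupffer cell markers, and Clec9a and Cd209a with the dendritic cell markers.

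Clec4a4 and Clec4b1, which lie in the same gene family as Clec4a1 to Clec4a3, were higher by 1.45 (FDR 0.000607) and 1.26 (FDR 0.00404) by edgeR, at means of 0.749 and 0.645 CPM in MCD livers. Without the low-count filter Clec4b1 did not pass (1.29, FDR 0.01005) and Clec4a4 did (1.48, FDR 0.00153). Control libraries had 0 to 11 counts of Clec4a4 and 0 to 16 of Clec4b1, so both calls are a description. They were chosen after their values were seen, and Clec4a4 shares sequence with Clec4a2. Of 7 dendritic cell markers, 6 were tested, and Xcr1, Flt3 and Itgae were higher (Xcr1 and Itgae with 2 to 12 and 2 to 14 control counts, and Klrd1 above with 0 to 12, so these calls are a description) while Clec9a, Zbtb46 and Cd209a did not pass, and the summed level was 10.4 to 19.6 CPM in control and 11.9 to 19.4 CPM in MCD libraries. Of 7 T and B cell markers, Cd3e, Cd3d and Cd8a were called higher, from 3 to 18, 1 to 17 and 2 to 20 control counts, so these calls too are a description, and 4 did not pass, of which Cd4 and Cd79a passed with total counts alone. Of 6 hepatocyte markers, Alb (-0.62) and Ttr (-0.85) were lower and 4 did not pass, and with total counts alone neither was called. Alb was also not past with upper-quartile factors (-0.47).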
